A study of Mus musculus with 12 samples.

Results

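To gauge how much RNA of macrophages was present in sorted mouse spermatogonia, the expression of 10 genes of testicular macrophages was examined in bulk RNA-seq: Csf1r, Adgre1, Cd68, Cd14, C1qa, C1qb, C1qc, Cd74, Lyz2 and Mrc1. They were picked by gene name, not by level, and are 10 of the 55385 genes in the deposited table. Values are TPM, the abundance of a transcript as a share of its library after correction for transcript length. The number of reads behind a value is not kept in this unit, so depth and counting error are unknown.

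The 12 libraries formed 6 groups of 2, each library being a separate pool of sorted cells. WT A_undiff (undifferentiated spermatogonia, E-Cadherin+ CD9 high KIT-) and WT A_diff (early differentiating spermatogonia, E-Cadherin+ CD9 medium KIT+) came from C57BL/6 mice of 2 to 3 mo. The other 4 groups were A_undiff of C57BL/6 X FVB/NJ mice sampled at 2 mo. PRC1ctrl were Ring1-/-; Rnf2 F/+; Ddx4-Cre and PRC1cKO were Ring1-/-; Rnf2 F/-; Ddx4-Cre, so that both lacked Ring1 in every cell, including macrophages, and Ddx4-Cre acted on Rnf2 in germ cells. PRC1cKO carried a null Rnf2 allele in place of the + allele of PRC1ctrl, so the labels differed in Rnf2 outside germ cells as well. Rnf2 and Ring1 encode E3 ligases of Polycomb repressive complex 1 (PRC1). One PRC1ctrl and one PRC1cKO group were untreated. The other PRC1ctrl and PRC1cKO groups had received Win18446, an inhibitor of the retinoic acid-producing enzyme ALDH1A2, which blocks the differentiation of spermatogonia. The drug, at 40 μg/μl in 50 μl of DMSO, was given from 1 mo of age for about 30 days, with sampling 24 h after the last dose. Untreated PRC1 libraries were made from about 7000 cells with a low-input kit, and the other 8 from 100000 to 150000 cells with a stranded TruSeq kit, so that kit and treatment cannot be told apart within the PRC1 mice.

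The sorted cells carried germ cell transcripts throughout, with a summed TPM of 921.1 to 2266 over 6 germ cell genes. The list of 11 genes of undifferentiated spermatogonia summed to 1027 to 1155 TPM in WT A_undiff and to 292.6 to 326.5 in WT A_diff, and Kit was higher in WT A_diff (limma log2 fold change 5.01, SE 0.14, adjusted p = 0.000205). Ring1 lay at 0.03 to 0.25 TPM in the 8 PRC1 libraries against 8.61 to 19.9 in WT. Rnf2 was not lower under the label PRC1cKO than under PRC1ctrl. It was at 56.73 and 67.48 against 28.26 and 47.63 TPM at 2 mo, and at 86.17 and 93.14 against 78.09 and 67.16 TPM after Win18446. TPM of the whole gene does not show whether its floxed part was lost, so these groups are called by their labels. The authors describe, from earlier work, an almost full loss in PRC1cKO germ cells of the ubiquitin mark that PRC1 places on histone H2A. Mitochondrial genes held 12.5% to 16.7% of the TPM of the low-input libraries and 4.28% to 6.69% of the others.

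Macrophages live in the interstitium of the testis beside Leydig cells and on the surface of the seminiferous tubules. They depend on signalling through the receptor CSF1R, they engulf dying cells and debris and digest them in lysosomes, and they secrete C1q, the recognition component of the classical complement pathway. A part of them carries MHC class II, which presents peptides to T cells and needs the invariant chain CD74 for its assembly. In bulk samples, fewer cells of a type and less RNA per cell cannot be told apart.

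The transcription factor PU.1, encoded by Spi1, directs macrophage gene expression through purine-rich sites, and the sequences before 3 members are shown here because they hold the letters GAGGAA, a short form of such a site. RefSeq promoter windows of GRCm38.p6 were at hand for 5 members, each cut to the 250 bases before the start that RefSeq gives. This start differs from the annotated gene ends given below, so that the window of Mrc1 reaches into its gene and those of C1qb and Cd68 stop short of theirs. GAGGAA, searched on both strands (TTCCTC on the other), occurred in 4 of these 5 windows (80%), the windows of C1qb, C1qc, Cd68 and Mrc1, and not in that of Lyz2. Among all 32851 windows it occurred in 7639 (23.3%). A match is a description of the letters and not a binding site. The windows are printed from 5′ to 3′ on the strand of the gene, with the match in capitals, for C1qb (chr4:136886201-136886450, minus strand), Cd68 (chr11:69666171-69666420, minus strand) and Mrc1 (chr2:14229164-14229413, plus strand).
C1qb: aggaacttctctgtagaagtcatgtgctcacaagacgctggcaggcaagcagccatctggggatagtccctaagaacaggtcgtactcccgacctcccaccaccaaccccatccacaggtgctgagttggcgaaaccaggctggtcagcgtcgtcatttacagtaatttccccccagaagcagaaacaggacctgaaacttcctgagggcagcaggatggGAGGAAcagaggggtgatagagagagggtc
Cd68: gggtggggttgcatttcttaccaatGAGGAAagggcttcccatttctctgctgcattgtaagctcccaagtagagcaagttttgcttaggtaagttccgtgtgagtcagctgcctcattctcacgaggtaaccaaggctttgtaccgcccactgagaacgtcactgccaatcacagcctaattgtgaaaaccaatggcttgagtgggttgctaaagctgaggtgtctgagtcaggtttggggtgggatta
Mrc1: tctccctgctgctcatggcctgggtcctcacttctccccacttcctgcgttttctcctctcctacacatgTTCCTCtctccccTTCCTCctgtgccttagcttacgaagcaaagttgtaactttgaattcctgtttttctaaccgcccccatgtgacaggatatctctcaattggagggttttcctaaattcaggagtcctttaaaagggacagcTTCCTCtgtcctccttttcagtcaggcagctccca
C1qb and Cd68 held the match once and Mrc1 held it 3 times. Spi1 itself, named here after its values were seen, lay at 0 to 1.65 TPM.

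The members lie on 6 chromosomes (GRCm38), and all are annotated as protein-coding. Csf1r (chromosome 18 from 61100598 to 61132149, plus strand), Cd74 (chromosome 18 from 60803848 to 60812652, plus strand) and Cd14 (chromosome 18 from 36725067 to 36726798, minus strand) share a chromosome. C1qb (136880129 to 136886187), C1qc (136889804 to 136893065) and C1qa (136895917 to 136898803) stand side by side on the minus strand of chromosome 4. Adgre1 lies on chromosome 17 from 57358691 to 57483527, Cd68 on chromosome 11 from 69664213 to 69666153, Lyz2 on chromosome 10 from 117277331 to 117282321 and Mrc1 on chromosome 2 from 14229392 to 14332057. Of the exonic bases of Csf1r, 15.1% lie over Hmgxb3 on the opposite strand, and the low-input kit does not mark the strand, so reads there could belong to either gene. Lyz2 has a near-identical neighbour, Lyz1, listed at 0 to 0.77 TPM, and the split of reads between them is uncertain.

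All members were low except Cd74. By mean TPM over the 12 libraries, Cd74 (114 TPM) had rank 1407 of the 55385 genes and Lyz2 (7.33 TPM) had rank 9753, followed by Cd68 (4.05), Cd14 (3.20), C1qb (2.13), C1qa (1.94), C1qc (1.59), Mrc1 (1.37), Csf1r (0.64) and Adgre1 (0.34). From 4 to 10 members reached 1 TPM in a library, and only the first PRC1ctrl library after Win18446 had all 10 above it. Cd74 alone made up 55.2% to 95.7% of the summed TPM of the members in 10 libraries and 28.0% and 33.5% in PRC1ctrl after Win18446. The sum thus followed Cd74: it was 75.2 and 125.8 TPM in WT A_undiff, 43.69 and 40.77 in WT A_diff, 14.83 and 128.8 in PRC1ctrl and 145.2 and 710.5 in PRC1cKO at 2 mo, and 69.96 and 46.96 in PRC1ctrl and 147.3 and 96.0 in PRC1cKO after Win18446. Without Cd74 the order of the groups differed. The other 9 members then summed to 50.3 and 31.2 TPM in PRC1ctrl after Win18446 and to 32.1 and 25.6 in PRC1cKO after Win18446, against 14.7 and 21.5 in WT A_undiff, 7.40 and 16.5 in WT A_diff, 6.65 and 16.7 in PRC1ctrl and 17.9 and 30.6 in PRC1cKO at 2 mo.

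**Figure D1:**
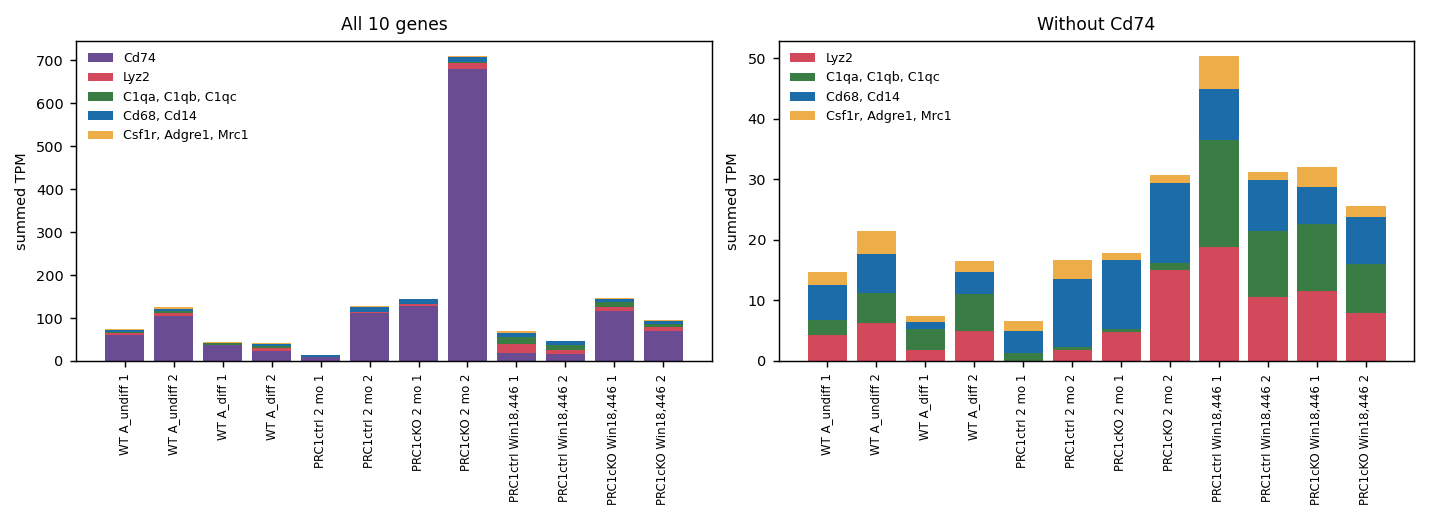
Summed TPM of the macrophage genes in each of the 12 libraries (bars, linear axes from 0), for all 10 genes (left) and without Cd74 (right), with colours for single genes or groups of genes. Cd74 fills most of the left bars, up to 95.7% in the second PRC1cKO library at 2 mo, and the tallest bar without it is that of the first PRC1ctrl library after Win18446 (50.3 TPM).

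Among the surface receptors, Csf1r, the receptor for the growth factor that macrophages need, was low in every library. It was at 0.15 and 0.85 TPM in WT A_undiff, 0.47 and 1.52 in WT A_diff, 2.13 and 0.41 in PRC1ctrl after Win18446 and 1.21 and 0.66 in PRC1cKO after Win18446. At 2 mo it was listed at 0 in both PRC1ctrl libraries and at 0.11 and 0.13 TPM in PRC1cKO. The 4 TruSeq groups overlapped. Adgre1, which encodes the macrophage surface protein F4/80, was lower still. It was at 0.21 and 0.67 TPM in WT A_undiff, 0 and 0.05 in WT A_diff, 0.01 and 0.28 in PRC1ctrl and 0 and 0.34 in PRC1cKO at 2 mo. After Win18446 it was at 1.14 and 0.13 TPM in PRC1ctrl and at 0.69 and 0.61 in PRC1cKO. Only 1 library exceeded 1 TPM for Adgre1, the same one that had the highest Csf1r.

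Mrc1, the mannose receptor of tissue macrophages, was at 1.78 and 2.31 TPM in WT A_undiff and at 0.50 and 0.28 in WT A_diff. It was at 1.66 and 2.92 TPM in PRC1ctrl and 1.04 and 0.82 in PRC1cKO at 2 mo. After Win18446 it was at 2.22 and 0.85 TPM in PRC1ctrl and at 1.51 and 0.59 in PRC1cKO. WT A_diff lay below WT A_undiff without overlap, PRC1cKO lay below PRC1ctrl at 2 mo, and the Win18446 groups overlapped. Cd14, the co-receptor for bacterial lipopolysaccharide, was present at similar levels with both kits. It was at 2.30 and 3.64 TPM in WT A_undiff, 0.95 and 1.13 in WT A_diff, 2.83 and 6.5 in PRC1ctrl and 3.96 and 4.17 in PRC1cKO at 2 mo, and 3.44 and 2.43 in PRC1ctrl and 3.24 and 3.84 in PRC1cKO after Win18446. WT A_diff again stood lowest, and all other groups overlapped with a neighbour.

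The 3 chains of C1q were highest in PRC1ctrl after Win18446. C1qa was at 1.46 and 0.87 TPM in WT A_undiff, 1.16 and 3.08 in WT A_diff, 5.54 and 3.94 in PRC1ctrl after Win18446 and 3.39 and 2.97 in PRC1cKO after Win18446. C1qb was at 0.41 and 2.70 TPM, 1.23 and 1.20 TPM, 7.77 and 3.6 TPM, and 3.99 and 3.06 TPM in the same order. C1qc was at 0.51 and 1.42 TPM, 0.99 and 1.76 TPM, 4.42 and 3.20 TPM, and 3.69 and 2.11 TPM. For each chain, all 4 treated libraries lay above both WT A_undiff libraries. The low-input libraries held little of any chain: C1qa was listed at 0 in both PRC1ctrl libraries and at 0.23 and 0.67 TPM in PRC1cKO, C1qb was at 1.3 and 0.26 TPM in PRC1ctrl and at 0 and 0.07 in PRC1cKO, and C1qc was at 0 and 0.21 TPM in PRC1ctrl and at 0.30 and 0.44 in PRC1cKO. The chains together summed to 0.47 to 1.3 TPM at 2 mo and to 8.14 to 17.7 TPM after Win18446.

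Of the members with roles in the lysosome or in killing bacteria, Cd68, a lysosomal membrane glycoprotein, was at 3.53 and 2.71 TPM in WT A_undiff and at 0.21 and 2.47 in WT A_diff. It was at 0.83 and 4.70 TPM in PRC1ctrl and at 7.54 and 8.98 in PRC1cKO at 2 mo, the highest values of the gene. After Win18446 it was at 4.88 and 6.02 TPM in PRC1ctrl and at 2.88 and 3.79 in PRC1cKO. Every PRC1cKO library was thus above every PRC1ctrl library at 2 mo and below every one after Win18446. Lyz2, which encodes lysozyme, was at 4.36 and 6.31 TPM in WT A_undiff and at 1.89 and 4.97 in WT A_diff. It was at 0.02 and 1.87 TPM in PRC1ctrl and at 4.71 and 15.01 in PRC1cKO at 2 mo, and at 18.81 and 10.64 TPM in PRC1ctrl and 11.49 and 7.93 in PRC1cKO after Win18446. The untreated PRC1ctrl libraries were the lowest for this gene, and the treated groups overlapped.

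Cd74 was at 60.49 and 104.31 TPM in WT A_undiff and at 36.29 and 24.31 in WT A_diff. At 2 mo it was at 8.18 and 112.09 TPM in PRC1ctrl and at 127.30 and 679.88 in PRC1cKO, so that libraries of one group differed more than most groups did. After Win18446 it was at 19.61 and 15.74 TPM in PRC1ctrl and at 115.22 and 70.44 in PRC1cKO, without overlap. Among libraries of the same kit, the summed MHC class II genes, whose products CD74 chaperones, rose and fell with it. Between kits this did not hold, as in the second PRC1ctrl library at 2 mo against the first WT A_diff library. H2-Aa, H2-Ab1 and H2-Eb1 summed to 88.4 and 142 TPM in WT A_undiff, 56.8 and 36.2 in WT A_diff, 4.11 and 43.2 in PRC1ctrl and 55.0 and 311 in PRC1cKO at 2 mo, and 32.5 and 26.5 in PRC1ctrl and 205 and 104 in PRC1cKO after Win18446.

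**Figure D2:**
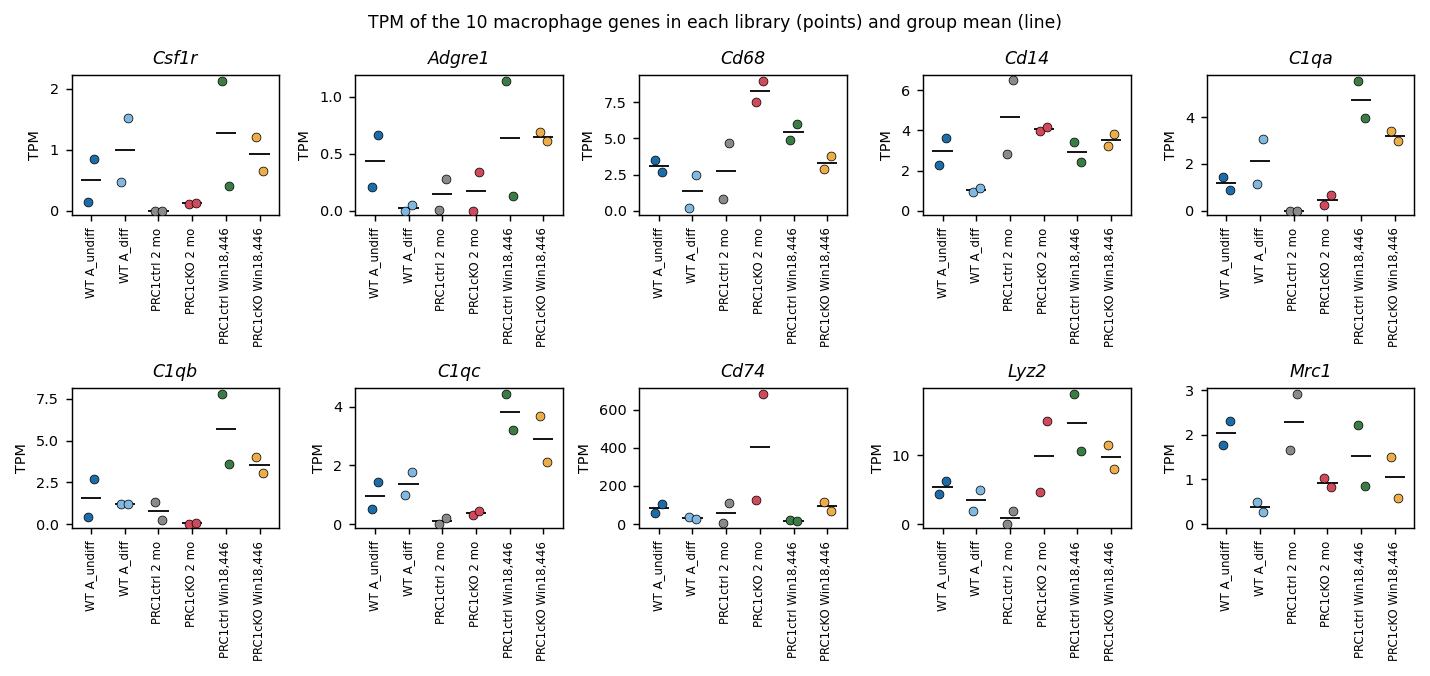
TPM of each of the 10 macrophage genes (linear axes, a separate scale per gene) in the 6 groups, with a point per library and a line at the mean of the 2. The C1q chains and Lyz2 have their highest means in PRC1ctrl after Win18446, while Cd74 peaks in PRC1cKO at 2 mo with libraries at 127.30 and 679.88 TPM.

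Comparisons were made with limma on log2(TPM + 1), over genes with at least 1 TPM in at least 2 of the libraries compared. A gene was called where its p, adjusted by Benjamini-Hochberg over all genes tested, was below 0.05 and its log2 fold change was beyond 1 in either direction. Fold changes are on the log2(TPM + 1) scale, which understates the change of genes near 1 TPM. With 2 libraries against 2, an exact permutation test of a single gene cannot go below a two-sided p of 0.333, so the p-values rest on the spread that limma pools across genes. A lack of overlap between groups, as described above, is the most extreme outcome of that permutation test. Its share over all genes is not given here, so it is a description only. Members at low level could not be tested in every comparison, and whether one passed the filter depended on the group where it was high. In any comparison, a gene that reached 1 TPM only in the libraries of 1 group could, once tested, only appear higher in that group.

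The first comparison asked whether the macrophage genes differ between WT A_undiff and WT A_diff, sorted from mice of one genotype with one kit. Cd74 and Mrc1 were lower in WT A_diff. Cd74 was at 82.4 ± 31.0 TPM in A_undiff and 30.3 ± 8.47 TPM in A_diff (SD, n = 2), a log2 fold change of -1.39 (SE 0.30, limma adjusted p = 0.0164), and Mrc1 at 2.05 ± 0.38 and 0.39 ± 0.16 TPM, a log2 fold change of -1.13 (SE 0.28, limma adjusted p = 0.0238). Of the 8 members tested, 2 were called lower and 0 higher. Mrc1 reached 1 TPM only in the A_undiff libraries, so once tested it could only appear lower in A_diff. Over all 15470 genes tested, 9.24% were called lower and 11.1% higher. Cd14 had an adjusted p of 0.0457 but a log2 fold change of -0.94, short of the threshold (limma), and was called under median-of-ratios scaling (-1.05, limma adjusted p = 0.0346). The other members tested were not called: Cd68 (log2 fold change -1.0, limma adjusted p = 0.161), Lyz2 (-0.59, 0.273), C1qa (0.47, 0.368), C1qc (0.29, 0.546) and C1qb (-0.04, 0.952). The median log2 fold change over the 8 members tested was -0.77, beside 0.15 for all genes tested. Csf1r and Adgre1 did not pass the filter.

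These calls rested on single libraries. Without the second A_undiff library, Cd74 fell short of a call at -1.0 (limma adjusted p = 0.0501), and without the second A_diff library it had -1.11 (0.0538) and Mrc1 -1.02 (0.0648), while Cd68 (-1.76, limma adjusted p = 0.0021) and Lyz2 (-1.12, 0.0172) were then called lower. With all 12 libraries in 1 fit, Cd74 was not called (limma adjusted p = 0.371), and without the filter on low values Mrc1 was not (0.0554).

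In the same comparison, 8 of 10 genes of the MHC class II pathway were tested and 5 were called lower: H2-Eb1 (log2 fold change -1.32), Ctss (-1.32), H2-Aa (-1.25), H2-Ab1 (-1.19) and H2-DMb1 (-1.07), with limma adjusted p-values of 0.0101 to 0.0299. H2-Aa, H2-Ab1 and H2-Eb1 encode the chains of the presenting molecule, H2-DMb1 a subunit of the factor that loads its peptides, and Ctss the protease that trims CD74. Of 20 further macrophage and monocyte genes, 9 were tested and 3 were called lower, the apoptotic cell receptor Mertk (-1.20), the lectin Clec10a (-1.12) and the hyaluronan receptor Lyve1 (-1.08), with 0 called higher. Of 10 leukocyte genes, Coro1a (-2.15) and Itgb2 (-1.11) were called lower among 7 tested. Among 10 genes of macrophage transcription factors and growth factors, Cebpa (-1.02) was called lower among 6 tested. Markers of Sertoli and endothelial cells were lower as well, but not those of every cell type. The chemokine receptor Cxcr2, the 1 gene tested of neutrophils and mast cells, was called higher (1.18, limma adjusted p = 0.0349). Of 7 spermatocyte markers tested, 6 had a positive log2 fold change and Ybx2 was called higher (1.06, limma adjusted p = 0.00403). Sertoli cell markers had a summed TPM of 358.7 and 346.6 in A_undiff against 183.2 and 170.3 in A_diff. Most of these sums was Ctsl, which is also in the lysosome list, at 237.51 and 229.66 TPM in A_undiff and 142.71 and 124.65 in A_diff. Trf (-3.58) and Rhox5 (-1.21) were called lower among 8 tested. The other Sertoli markers tested ran from -0.38 (Aard) to -0.82 (Wt1) and were not called by limma. Endothelial markers summed to 10.39 and 25.45 TPM in A_undiff and to 8.53 and 7.08 in A_diff, with Tek, a vascular receptor kinase, called lower (-1.13) among 6 tested. The part of these cells in the fall of Cd74 and Mrc1 was not tested. Leydig cell markers overlapped between the populations, at 23.54 and 45.39 against 10.76 and 42.9 summed TPM. Of the genes called here, H2-DMb1, Mertk, Lyve1, Itgb2 and Tek reached 1 TPM only in A_undiff, so they too could only appear lower in A_diff.

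**Figure D3:**
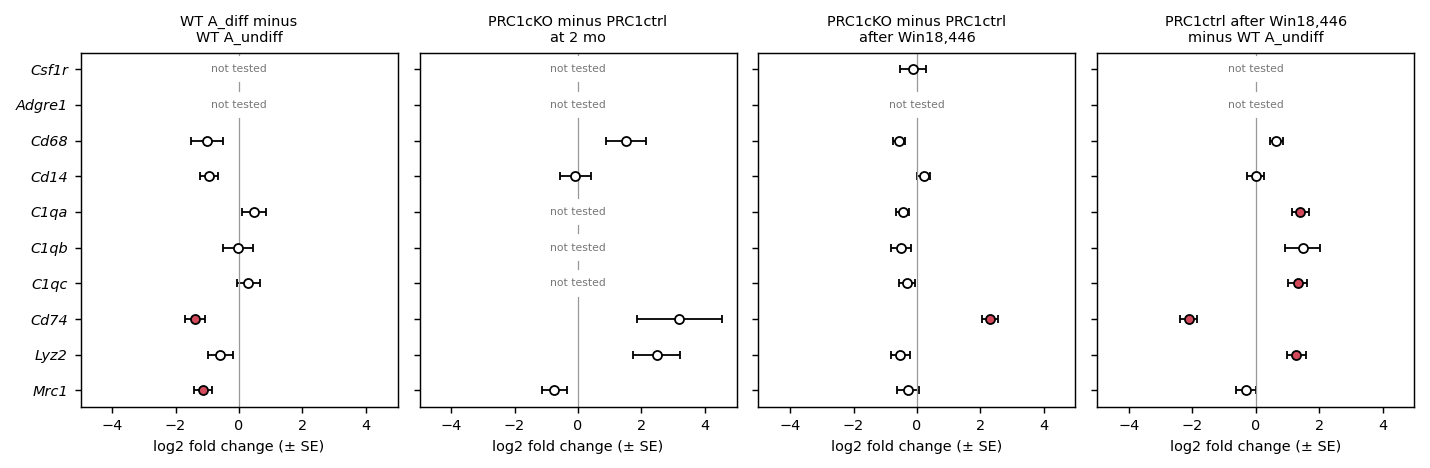
Log2 fold change on the log2(TPM + 1) scale with its SE (bars) of the 10 genes in 4 limma comparisons, red where the gene was called (adjusted p below 0.05, beyond 1 in either direction). Cd74 is called in 3 panels, lower in WT A_diff (-1.39), higher in PRC1cKO after Win18446 (2.29) and lower in PRC1ctrl after Win18446 than in WT A_undiff (-2.12).

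The second comparison set PRC1cKO against PRC1ctrl at 2 mo. Of the 5 members that passed the filter, 0 were called in either direction by limma, 1 had an unadjusted p under 0.05 (Lyz2), and over all 13953 genes tested 0.222% were called higher and 1.94% lower. Lyz2 had a log2 fold change of 2.48 (SE 0.74, limma adjusted p = 0.206), Cd74 3.20 (SE 1.33, limma adjusted p = 0.369) and Cd68 1.52 (SE 0.63, limma adjusted p = 0.371). Cd14 (-0.08, limma adjusted p = 0.952) and Mrc1 (-0.74, limma adjusted p = 0.477) were not called either. These misses do not show that the groups were alike, since the SE reached 1.33. With all 12 libraries in 1 fit, Lyz2 was called higher (limma adjusted p = 0.0257). Csf1r, Adgre1 and the C1q chains were at or under 1 TPM in all but 1 value and were not tested.

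Around these genes, the MHC class II pathway had 6 genes tested and the leukocyte list 5, with 0 called in each (limma) and a median log2 fold change of 2.21 and 1.31, beside 0.22 for all genes tested. The further macrophage and monocyte list did not share this rise. It had 8 genes tested, 0 called by limma and a median of 0.08. Its summed TPM overlapped, at 29.47 and 57.25 in PRC1cKO and 43.97 and 55.12 in PRC1ctrl. The first PRC1ctrl library was low for leukocyte genes as it was for the members, with a summed TPM of 6.73 against 16.14, 19.37 and 55.77 in the other 3. Leydig cell markers were at 1.39 and 1.41 summed TPM in PRC1ctrl and at 24.75 and 68.63 in PRC1cKO, with the steroid enzyme Hsd3b1 called higher (log2 fold change 2.88, SE 0.42, limma adjusted p = 0.0421). Spermatid markers moved the other way, from 760.7 and 1764 to 64.83 and 58.78 summed TPM, and 5 of 6 tested were called lower, led by the protamine Prm1 (-8.14). The part of these shifts in the levels of Cd74, Lyz2 and Cd68 was not tested.

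After Win18446, Cd74 was the 1 member called between PRC1cKO and PRC1ctrl. It was at 92.8 ± 31.7 TPM in PRC1cKO and 17.7 ± 2.74 TPM in PRC1ctrl (SD, n = 2), a log2 fold change of 2.29 (SE 0.25, limma adjusted p = 0.00332). Of the 9 members tested, 1 was called higher and 0 lower, while over all 16521 genes tested 1.27% were called higher and 10.9% lower. The others had smaller differences that were not called: Cd68 (log2 fold change -0.58, limma adjusted p = 0.0629), Lyz2 (-0.52, 0.234), C1qb (-0.50, 0.287), C1qa (-0.45, 0.137), C1qc (-0.32, 0.374), Mrc1 (-0.29, 0.561), Csf1r (-0.13, 0.834) and Cd14 (0.22, 0.456). Csf1r and Mrc1 changed sign under quantile normalization, to 0.24 and 0.12. The median over the members tested was -0.32, beside -0.19 for all genes tested. Adgre1 did not pass the filter. With all 12 libraries in 1 fit, the call of Cd74 was lost (limma adjusted p = 0.216).

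The direction of the summed TPM therefore depended on 1 gene. The members together were higher in PRC1cKO than in PRC1ctrl after Win18446, by 1.06 on the log2 scale of the group means, and without Cd74 the ratio was -0.50. The libraries overlapped in the sum without Cd74 (50.3 and 31.2 TPM in PRC1ctrl, 32.1 and 25.6 in PRC1cKO), and without the first PRC1ctrl library the ratio was -0.12. Of the MHC class II pathway, 3 of 8 tested were called higher as Cd74 was, H2-Ab1 (2.40, limma adjusted p = 0.00726), H2-Aa (2.14, 0.0167) and H2-Eb1 (2.11, 0.0104), and 0 lower. H2-Ab1 rose from 8.16 and 6.80 TPM to 61.17 and 31.04 TPM. Of the leukocyte list, the actin-binding Lsp1 was called higher (1.24, limma adjusted p = 0.00281) and 0 of 7 tested were called lower, and of the T and NK cell list the granzyme Gzma was called higher (1.3, limma adjusted p = 0.00677) among 4 tested. None of 9 further macrophage and monocyte genes tested was called by limma, and their median log2 fold change was -0.06. Leydig cell markers summed to 24.06 and 85.31 TPM in PRC1cKO against 86.68 and 435.4 in PRC1ctrl with 0 of 7 tested called by limma, Sertoli cell markers overlapped (427.5 and 580.2 against 421.2 and 589.7), and all 3 hemoglobin genes tested were called lower (Hbb-bs -2.15, Hba-a1 -1.73, Hba-a2 -1.19). Germ cell stages shifted at the same time. Spermatid markers summed to 23.97 and 25.89 TPM in PRC1cKO against 128.6 and 140.6 in PRC1ctrl, with 4 of 6 tested called lower (limma), of spermatocyte markers 3 of 7 were called lower, among them Ybx2 (-1.34), and of markers of differentiating spermatogonia 4 of 7 were called higher, among them Prss50 (2.22) and Kit (1.42). Their part in the rise of Cd74 was not tested.

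**Figure D4:**
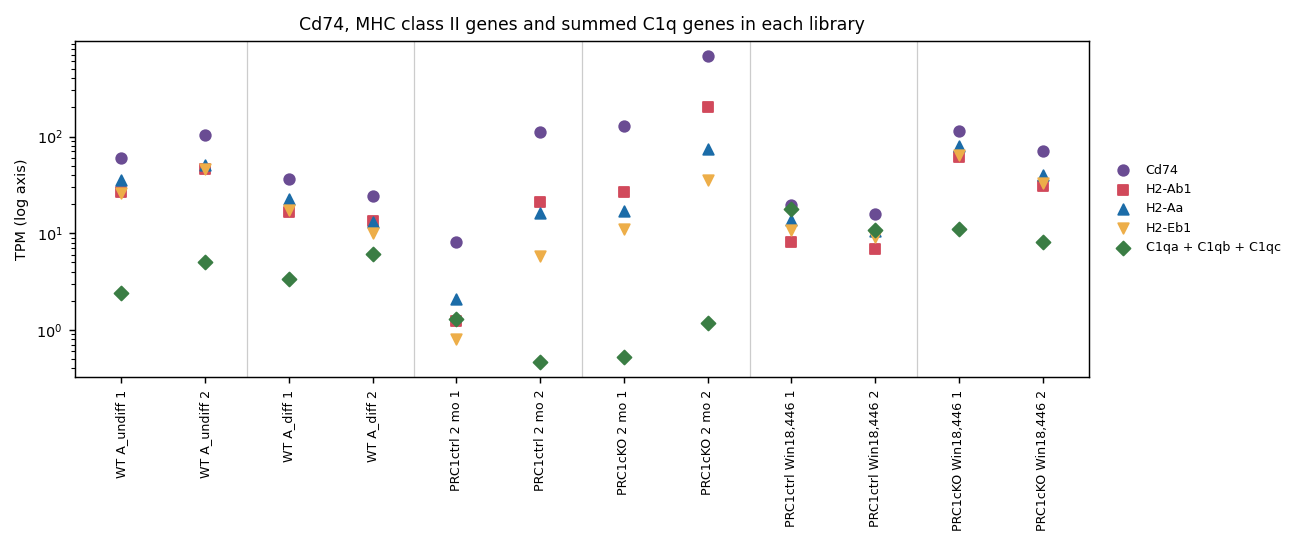
TPM of Cd74, H2-Aa, H2-Ab1 and H2-Eb1 and summed TPM of C1qa, C1qb and C1qc in each of the 12 libraries, on a log axis, with lines between groups. Among libraries of the same kit the MHC class II genes broadly rise and fall with Cd74, and the C1q sum does not: in PRC1ctrl after Win18446 Cd74 is at 19.61 and 15.74 TPM and C1q at 17.7 and 10.7 TPM. Between kits the levels relative to Cd74 differ. The second PRC1ctrl library at 2 mo has Cd74 at 112.09 and H2-Eb1 at 5.81 TPM, the second WT A_undiff library 104.31 and 45.62 TPM.

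The fourth comparison set PRC1ctrl after Win18446 against WT A_undiff, which share the gate and the kit and differ in treatment, strain and genotype at once. These causes cannot be told apart, and each of these groups also serves in another comparison above. C1qa, C1qc and Lyz2 were higher after Win18446 and Cd74 was lower. C1qa was at 4.74 ± 1.13 TPM against 1.17 ± 0.42 TPM (SD, n = 2; log2 fold change 1.41, SE 0.26, limma adjusted p = 0.00943), C1qc at 3.81 ± 0.86 against 0.97 ± 0.64 TPM (1.32, SE 0.30, limma adjusted p = 0.0176) and Lyz2 at 14.7 ± 5.78 against 5.34 ± 1.38 TPM (1.28, SE 0.30, limma adjusted p = 0.0195). Cd74 was at 17.7 ± 2.74 against 82.4 ± 31.0 TPM (-2.12, SE 0.27, limma adjusted p = 0.00367). Of the 8 members tested, 3 were called higher and 1 lower, beside 16.4% higher and 3.17% lower over all 16602 genes tested. C1qb had a log2 fold change of 1.48 that was not called (SE 0.54, limma adjusted p = 0.0778), and Cd68 (0.65, 0.0569), Mrc1 (-0.31, 0.458) and Cd14 (-0.00, 0.992) were not called either. The median over these 8 members was 0.96, beside 0.30 for all genes tested.

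The rise of the C1q chains and Lyz2 depended on scaling. Under quantile normalization, which brings the median of all genes to -0.01, C1qa (0.97), C1qc (0.87) and Lyz2 (0.85) remained positive but passed the fold threshold in 0 cases, and under median-of-ratios scaling Lyz2 (0.97, limma adjusted p = 0.0527) was not called. Without the first WT A_undiff library or without the first PRC1ctrl library, only C1qa of the 3 was called higher, and C1qb was called without the second library of either group (1.94 to 2.17). Without the filter on low values C1qc (limma adjusted p = 0.0667) and Lyz2 (0.0779) were not called, and with all 12 libraries in 1 fit Lyz2 (0.162) and Cd74 (0.179) were not.

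Among related lists, the MHC class II pathway had 3 genes called lower and 0 higher of 8 tested (H2-Ab1 -2.11, H2-Aa -1.74, H2-Eb1 -1.70, limma adjusted p of 0.00357 to 0.00637). Of the other complement genes, C2, a protease of the classical pathway, was called higher (1.25, limma adjusted p = 0.0241) among 3 tested. The further macrophage and monocyte list had Pf4, the platelet factor 4 chemokine, called higher (1.64, limma adjusted p = 0.00744) and 0 lower of 10 tested, and the list of transcription and growth factors had Csf2ra, a receptor subunit for GM-CSF (1.03, limma adjusted p = 0.0154). The leukocyte list was split, with Lcp1 higher (1.37) and Cd52 (-1.51) and Itgb2 (-1.08) lower. Of the CD14 and TLR4 pathway, the adaptor Traf6 (1.03) was called higher, and of 10 lysosome genes 0 were called by limma. Markers of Sertoli and Leydig cells stood higher as well: the Sertoli list summed to 589.7 and 421.2 TPM against 358.7 and 346.6, with 4 of 9 tested called higher (Clu 1.79, Aard 1.49, Amhr2 1.44, Cldn11 1.38), and the Leydig list to 435.4 and 86.68 TPM against 23.54 and 45.39, with Star (1.46) called higher among 7 tested. Peritubular myoid markers overlapped (41.52 and 26.82 against 13.57 and 55.09 TPM), with 0 called higher and 1 lower of 5 tested (limma). Endothelial markers overlapped too (21.23 and 17.6 against 10.39 and 25.45 TPM), with 0 of 7 tested called by limma. The first PRC1ctrl library after Win18446 carried the most Leydig cell RNA (Insl3, the hormone of Leydig cells, at 292.16 TPM) and was also highest in Csf1r, Adgre1, C1qa, C1qb, C1qc and Lyz2. Of germ cell stages, 6 of 8 spermatid markers were called lower and 4 of 7 spermatocyte markers higher, led by Mybl1 (2.03). The part of all these cells in the levels of the members was not tested.

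**Figure D5:**
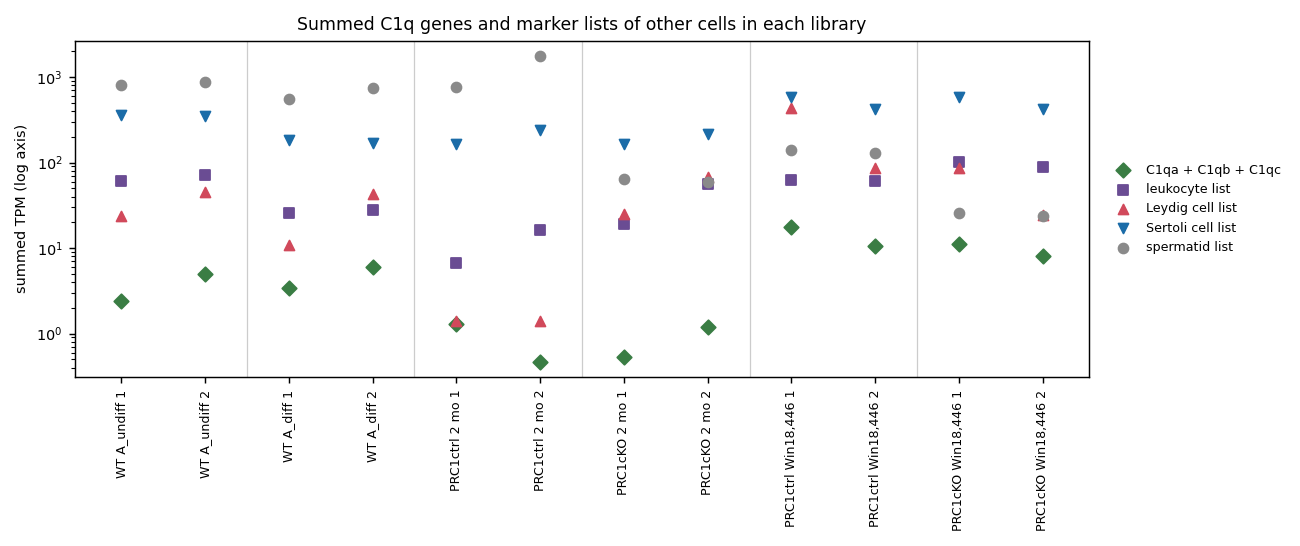
Summed TPM of C1qa, C1qb and C1qc beside marker lists of leukocytes, Leydig cells, Sertoli cells and spermatids in each library, on a log axis, with lines between groups. The C1q sum is highest in the first PRC1ctrl library after Win18446 (17.7 TPM), which also has the highest Leydig list (435.4 TPM), and the low-input libraries at 2 mo have the lowest C1q sums (0.47 to 1.3 TPM).

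Whether the genotype labels differed more with or without the drug was tested by an interaction term over the 8 PRC1 libraries, in which the drug is joined to the kit. Of the 9 members tested, 0 were called by limma, beside 7.74% of 18354 genes, and 3 had an unadjusted p under 0.05. These were Lyz2 (-3.01, SE 0.92, limma adjusted p = 0.103), Cd68 (-2.09, SE 0.71, limma adjusted p = 0.129) and C1qa (-0.96, SE 0.34, limma adjusted p = 0.140). Cd74 was higher in PRC1cKO libraries in both settings, and its interaction was -0.90 with an SE of 1.71 (limma adjusted p = 0.771), too wide to tell whether its difference changed.

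Markers of other immune cells ranged widely in level. Some were listed at 0, while Coro1a and Ighm were above every member other than Cd74 in the TruSeq A_undiff libraries. In PRC1ctrl after Win18446 they were above Cd74 as well. Cd3g and Nkg7 of T and NK cells and Ly6g and S100a9 of neutrophils, named here after their values were seen, were listed at 0 in all 12 libraries. The T and NK cell list summed to 7.87 to 26.42 TPM, of which Lck, a kinase of T cells, took 0.84 to 13.77 TPM, and the list of neutrophils and mast cells to 1.83 to 10.62 TPM, of which the chemokine receptor Cxcr2 took 1.36 to 8.52. The leukocyte list reached 6.73 to 101.2 TPM, with Coro1a, an actin-binding protein, and Lsp1 at the highest means. Coro1a was at 25.46 to 32.61 TPM in the TruSeq A_undiff libraries, 5.61 and 6.92 in WT A_diff and 0.53 to 2.53 in the low-input libraries. The B cell list summed to 30.4 to 36.23 TPM in WT A_undiff and PRC1ctrl after Win18446 and to 3.52 and 3.59 in WT A_diff. Ighm, the heavy chain of IgM, was at 19.65 to 30.59 TPM in the TruSeq A_undiff libraries and at 0.9 and 1.75 in WT A_diff. Ighm (-3.72, limma adjusted p = 0.000817) and Cd79a (-1.68) were called lower in WT A_diff among 3 tested. In that comparison Cd79a reached 1 TPM only in A_undiff, so it could only appear lower. Endothelial markers summed to 2.1 to 25.45 TPM and peritubular myoid markers to 1.47 to 55.09 TPM. Lysosome genes, which every cell uses, summed to 1344 to 1560 TPM in the TruSeq libraries and to 270.1 to 657.3 in the low-input ones.

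The genes most like the members in pattern were sought by Pearson's correlation with the mean log2(TPM + 1) of the 10 members over the 8 TruSeq libraries, across 17785 genes. The points share a kit and come in 4 groups of 2, so the coefficients describe these libraries only. The 10 highest were Mgst1 (r = 0.980), Plpp3 (0.978), Wfdc17 (0.974), Anxa5 (0.972), Kitl (0.969), Trim7 (0.963), Mmd2 (0.963), Gstm1 (0.959), Vim (0.959) and Dmrta1 (0.958). None is in the lists of macrophage, leukocyte or MHC class II genes used here. These lists are short and do not cover all genes of these cells. Cd74 taken alone, a choice made after seeing the data, was most like H2-Ab1 (r = 0.993), H2-Aa (0.985) and H2-Eb1 (0.984) among 17793 genes, and its coefficients with other members ran from -0.52 (C1qa) to 0.43 (Cd14). The mean of the C1q chains, also chosen after seeing the data, had r = 0.905 with Lyz2, at rank 123 of 17791 genes, and -0.32 with Cd74. With further members it had 0.673 (Csf1r), 0.566 (Cd68), 0.494 (Cd14) and 0.18 (Mrc1). Markers of other cells stood near Lyz2, namely Clu of Sertoli cells (0.881) and Cyp17a1 (0.829) and Insl3 (0.826) of Leydig cells. The C1q mean was most like A730063M14Rik (0.967), Pabpc4l (0.965) and Eif3j1 (0.96), and C2 and the lipid carrier Apoe (r = 0.95 each) had ranks 9 and 10. These coefficients were taken over the same 8 libraries.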

How the data were processed

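RNA-seq of 12 libraries was analysed from TPM that the authors computed with RSEM 1.3.3 and deposited in a single table, on GRCm38, and whether RSEM was run with a strand setting is not given in the sources used here. Their processing notes also list Trim Galore 0.6.6, HISAT2 2.2.1, SAMtools 1.9, HTSeq 1.6.0 and DESeq2 1.28.1, whose output was not used here. TPM is a share of a library and keeps no depth. Columns were assigned by their labels. Tests used log2(TPM + 1) and limma 3.58.1 (R 4.3.3, trend and robust moderation, two-sided), within each comparison, for genes reaching 1 TPM in 2 or more libraries. The procedure was tested on simulated data. Tables and figures were made with Python 3.11.15, pandas 2.3.3, numpy 2.4.6 and matplotlib 3.10.9. All 10 members were named, and from the 21 other lists the called genes (at most 5 per list and comparison) and the 2 of highest mean TPM. Of the list genes that this rule names, those of other cell types and germ cell stages are printed only in part, and 1 is not reported here. Members and lists were chosen with earlier results of these data known. Gene positions matched GENCODE vM21. Alternatives covered pseudocount, filter, scaling, fit, replicate block and each library left out.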

Additional observations from a re-analysis of the deposited data

How the results depend on the processing

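TPM keeps no depth, each group holds 2 libraries and most members lie near 1 TPM, which limits the tests of single members. The sum without Cd74 alone and the likeness to Cd74 or C1q alone were chosen after seeing the data. Leaving out a library leaves 1 in its group, which is assumed to vary like the others. The cause of the changes given here was not tested, beyond the fewer genes or libraries that a setting leaves.

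The 2 members called lower in WT A_diff became 1 with no filter, with a mean TPM of at least 5, and with all 12 libraries in 1 fit, and 3 with median-of-ratios scaling. The members called higher in PRC1cKO at 2 mo went from 0 to 1 (Lyz2) with all 12 libraries in 1 fit, which turned the 1 called after Win18446 and the 1 called lower in PRC1ctrl after Win18446 against WT A_undiff to 0. The 3 called higher in that last comparison became 1 with no filter, 1 with a mean TPM of at least 5, 2 with median-of-ratios scaling and 0 with quantile normalization. With 1 library left out at a time, the count called lower in WT A_diff ranged from 0 to 2, that called higher in PRC1ctrl after Win18446 from 1 to 4, and that called lower in the interaction from 0 to 1 (Cd68, without PRC1ctrl replicate 2 at 2 mo).

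The log2 ratio of the summed members reversed without Cd74, from 1.06 to -0.50 (-0.45 also without Lyz2) for PRC1cKO against PRC1ctrl after Win18446, and from -0.78 to 1.17 (1.03) for PRC1ctrl after Win18446 against WT A_undiff. With 1 library left out, also chosen after seeing the data, these ratios without Cd74 ranged from -0.81 to -0.12, nearest to 0 without the first PRC1ctrl library, and from 0.79 to 1.48. Small log2 fold changes reversed under single settings. C1qb in WT A_diff was 0.14 with a pseudocount of 0.1, and quantile normalization gave 0.24 for Csf1r and 0.12 for Mrc1 after Win18446 and 0.43 for Cd74 in the interaction. With 1 library left out, C1qb ranged from -0.74 to 0.65 and C1qc from -0.046 to 0.53 in WT A_diff, Cd14 from -0.57 to 0.40 at 2 mo, and Csf1r from -0.71 to 0.073 and Mrc1 from -0.69 to 0.04 in PRC1cKO after Win18446. In PRC1ctrl after Win18446 against WT A_undiff, Cd14 ranged from -0.25 to 0.24 and Mrc1 from -0.71 to 0.086. In the interaction, Cd14 ranged from -0.19 to 0.78, C1qb from -0.24 to 0.69 and Cd74 from -2.71 to 0.91.

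Replicate numbers were shared between groups, but with 2 pairs per comparison they share only a number. The correlations of same-numbered deviations were 0.158, 0.381, 0.122 and 0.0746 in the 4 comparisons. With the replicate block, 1 member was called lower in WT A_diff (Mrc1) and 3 higher at 2 mo (Cd68, Lyz2 and Cd74), where calls over all genes went from 31 to 1074 higher and from 270 to 1098 lower.

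Over all genes and settings, calls higher and lower ranged from 1165 to 1809 and 816 to 1748 (WT), 0 to 1074 and 0 to 1098 (2 mo), 104 to 587 and 851 to 2291 (PRC1cKO after Win18446), 1181 to 3236 and 244 to 1098 (PRC1ctrl after Win18446 against WT A_undiff) and 15 to 866 and 6 to 1494 (interaction). The share of calls that were higher went from 54.7% to 40% (median-of-ratios) and 47.1% (quantile), from 10.4% to 23% and 40%, from 83.8% to 64.6% and 51.8%, and from 35.6% to 74.7% and 68.5%, for WT, PRC1cKO after Win18446, PRC1ctrl after Win18446 against WT A_undiff and the interaction. The median of all genes moved from 0.15, 0.22, -0.19, 0.30 and -0.41 to -0.00, -0.03, 0.03, -0.00 and 0.12 with median-of-ratios scaling, 2 mo standing second. Of the 10 genes most like the members, 7 were shared with z scores and 1 with all 12 libraries.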
